A study of Rattus norvegicus with 4 samples.

Results

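Among 10 genes of the NF-kB system described here, the inhibitor gene Nfkbib was higher with resveratrol in rats with chemically induced colitis, the receptor gene Cd40 was higher by one probe and lower by another, and the subunit genes were not called by any probe. The members were the subunit genes Nfkb1, Nfkb2, Rela and Relb, the inhibitor genes Nfkbia and Nfkbib and the inhibitor-like cofactor gene Bcl3. The others were the kinase gene Ikbkb, the receptor gene Cd40 and the deubiquitinase gene Tnfaip3. All members were searched by gene name among the non-control probes. This gave 14 of the array's 41012 probes, for 9 of the 10 genes beside 16451 named genes in all, and 13 of the probes could be tested. Relb was found by its description, Cd40 by its accession under the older name Tnfrsf5, and Bcl3 by the gene ID within its older name. No probe matched Tnfaip3.

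NF-kB is a family of transcription factors that work as pairs of subunits. In resting cells inhibitor proteins of the IkB family hold them in the cytoplasm. Receptors such as Cd40 signal to the IkB kinase, which marks the inhibitors for destruction and frees the subunits to switch on cytokine, chemokine and survival genes. In the colon the pathway acts both in leukocytes, where it drives inflammation, and in the epithelium, where it also protects cells from death. Much of this control acts on proteins, which transcript levels do not show.

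F344 rats, which are inbred, gave RNA of the colon mucosa. The resveratrol rats ate resveratrol, a plant polyphenol, at 1 mg/kg/day for 20 days and then drank 5% dextran sodium sulphate (DSS), a polymer that injures the colon lining, for 5 days. The control rats ate standard chow and then drank 5% DSS for 5 days. Both groups, each of 8 rats, thus had DSS colitis, and neither holds rats without DSS. Each of 4 arrays compared RNA from 2 resveratrol rats, labelled with Cy5, with the DSS control pool, labelled with Cy3. The control pool counts as 1 control sample, so the spread between control rats does not enter the tests, and because no dye was exchanged, an effect of the dye on a probe and an effect of resveratrol cannot be told apart. Values are log2 ratios of resveratrol over control pool, ± the moderated standard error of limma, and a call is a Benjamini-Hochberg adjusted p under 0.05 over all 18869 probes tested.

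Arrays 1 and 2 lay on one slide and arrays 3 and 4 on the other. Across array pairs the log2 ratios correlated between 0.70 and 0.89. This was over the 20409 probes well above background in a channel on 3 or more arrays. The scanner flagged 3.45% and 4.68% of spots as outliers on arrays 1 and 2, against 11.0% and 13.7% on arrays 3 and 4, and those were left out. Among the brightest 10% of spots the flagged share reached 51.2% on array 3 and 60.6% on array 4. The number of arrays limits the precision of every value.

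Over all members, 2 probes were called higher and 1 lower of the 13 tested, which is 23.1%. Of all tested probes 47.1% were called, 24.4% higher and 22.7% lower. The calls were Nfkbib and a probe of Cd40, both higher, and the other probe of Cd40, lower. The median of the 13 mean log2 ratios was 0.00, beside -0.02 over all probes. The plot of member ratios shows the means of the subunit and kinase probes between -0.06 and 0.28, with single arrays between -0.44 and 0.56, and wider spreads in Bcl3 and in one Cd40 probe.

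**Figure D1:**
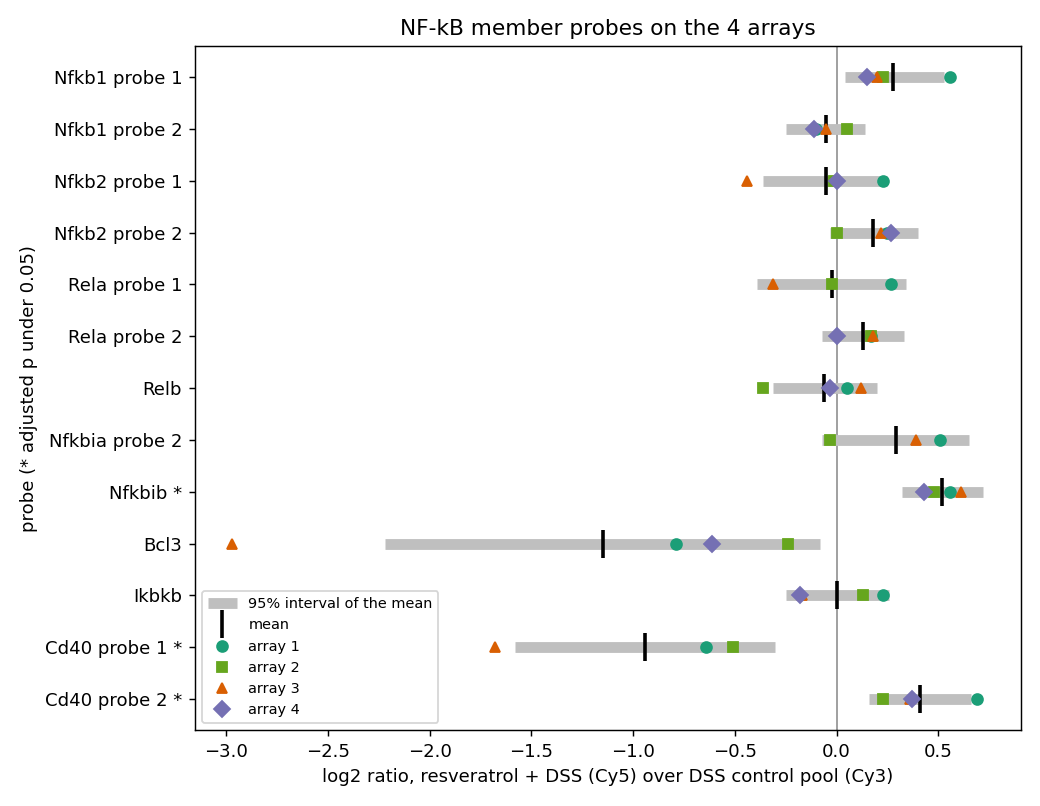
Log2 ratio (horizontal axis) of resveratrol plus DSS over the DSS control pool for each of the 13 tested member probes (rows). Coloured symbols are arrays 1 to 4, black ticks are means and grey bars are 95% intervals of the mean from limma. The 4 Nfkbib values lie between 0.43 and 0.61, while Bcl3 reaches -2.97 on array 3.

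Nfkbib was the member that rose by its only probe. It encodes IkB-beta, an inhibitor that retains NF-kB dimers in the cytoplasm. The probe reads these 60 bases, at chr1:83944311-83944370 on the minus strand of rn3, and is shown because it carries the one rise that did not oppose another probe of its gene.
Nfkbib: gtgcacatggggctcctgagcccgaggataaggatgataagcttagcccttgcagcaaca
Its normalized signal was 372, 352, 493 and 388 on arrays 1 to 4 in resveratrol rats, against 252, 253, 323 and 289 in the control pool. Every resveratrol value lay above every control value. The log2 ratios were 0.56, 0.48, 0.61 and 0.43, with a mean of 0.52 ± 0.08 (n = 4 arrays), a 1.43-fold level (95% interval of the log2 ratio 0.32 to 0.72, limma adjusted p = 0.00744). The probe was well above background on 4 arrays in resveratrol rats but on 2 in the control pool. It thus passed the filter only through the resveratrol channel. The 2 slides gave the same mean of 0.52, with an adjusted p of 0.0043 on slide 1 and 0.0704 on slide 2. With the standard error multiplied by the square root of 2, a stand-in for the unmeasured spread of the control pool, the adjusted p was 0.0438.

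Of the 7 subunit probes limma called 0, and 1 had an unadjusted p under 0.05. Their mean log2 ratios ran from -0.06 to 0.28, and their 95% intervals together covered -0.39 to 0.53. Nfkb1 encodes p105, the precursor of the p50 subunit, and had a pair of probes on chromosome 2 with 524 bases between them. Its brighter probe gave 0.56, 0.23, 0.20 and 0.15 on arrays 1 to 4, above 0 on every array, and its lowest resveratrol signal, 307, lay above its highest control pool signal, 294. It had a mean of 0.28 ± 0.10 that missed the threshold (limma adjusted p = 0.058) and passed it in 7 of 17 alternatives. The other Nfkb1 probe, printed in 10 spots on each array, gave -0.10, 0.05, -0.05 and -0.11 (mean -0.05 ± 0.08, adjusted p = 0.597). Within an array its spots varied with an SD of 0.10 to 0.18. The probe with more spots thus lay within 0.11 of 0 on all arrays, and the other was above that on all arrays.

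Nfkb2 encodes p100, the precursor of the p52 subunit used by the non-canonical branch of the pathway. Its brighter probe had signals of 1272, 918, 1008 and 1167 in resveratrol rats, against 1083, 924, 1368 and 1169 in the control pool, and these ranges overlapped. The mean log2 ratio was -0.05 ± 0.12 (adjusted p = 0.724). The dimmer Nfkb2 probe gave 0.25, 0.00, 0.22 and 0.27, with a mean of 0.18 ± 0.09 (adjusted p = 0.12). Each Nfkb2 probe spans more genome than its 60 bases, 193 and 325 bases on rn3, so neither is contiguous there.

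Rela encodes p65, the subunit that carries the transactivating part of the most abundant NF-kB dimer. The dimmer of its probes gave 0.17, 0.17, 0.18 and 0.00 (mean 0.13 ± 0.08, adjusted p = 0.215), where array 4 stood apart from the other arrays. Its brighter probe gave 0.27, -0.02 and -0.31 on the 3 arrays with an unflagged spot (mean -0.02 ± 0.14, adjusted p = 0.909). Relb encodes the partner of p52, and its log2 ratios were 0.05, -0.36, 0.12 and -0.03 (mean -0.06 ± 0.11, adjusted p = 0.675). Ikbkb, the gene for the catalytic subunit of the IkB kinase that drives the canonical branch, gave 0.23, 0.13, -0.17 and -0.18, with a mean of 0.00 ± 0.11 (adjusted p = 0.982). The Ikbkb values were above 0 on both arrays of slide 1 and below 0 on both of slide 2, where slide 2 alone gave -0.17 (adjusted p = 0.386). Neither Relb nor Ikbkb thus showed a change beyond the spread between arrays.

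**Figure D2:**
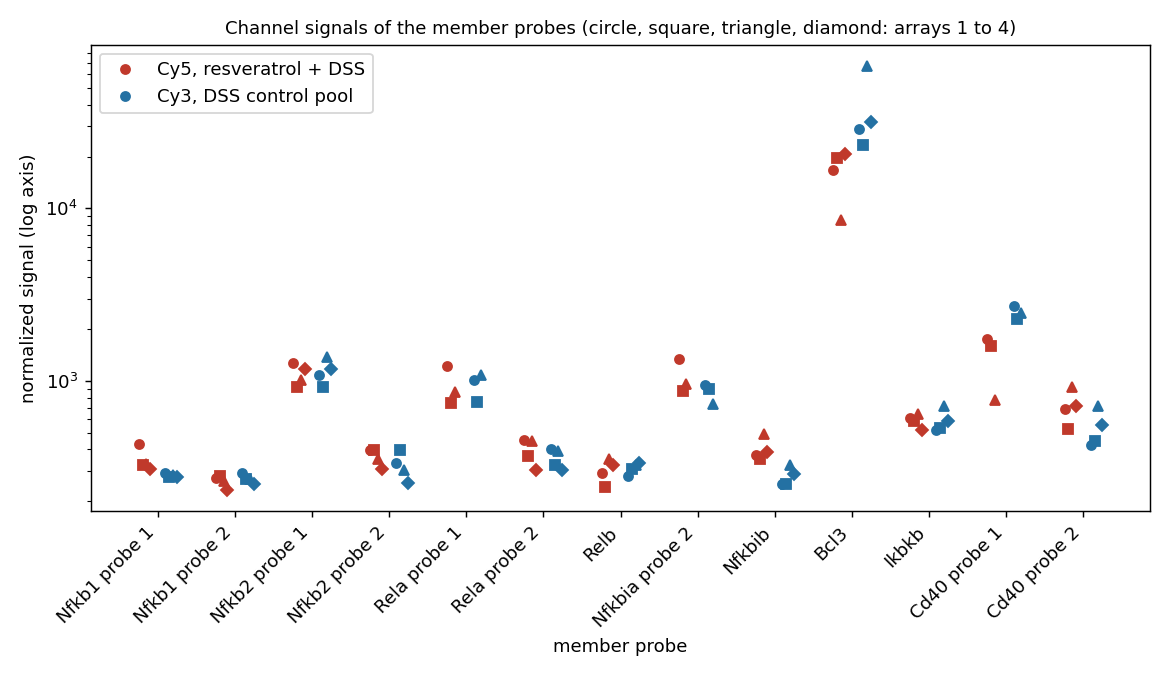
Normalized signal (vertical log axis) of each tested member probe (horizontal axis) in resveratrol plus DSS rats (Cy5, red, left) and in the DSS control pool (Cy3, blue, right), with 1 symbol per array. Signals of different probes are not comparable as levels of their genes. The colours separate fully for Nfkb1 probe 1, Nfkbib, Bcl3 and Cd40 probe 1.

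Nfkbia encodes IkB-alpha, the inhibitor that NF-kB itself induces and that ends the response in a feedback loop. It had a pair of probes on chromosome 6 with 162 bases between them, which differed when flagged spots were kept. The dimmer probe had signals of 1340, 874 and 959 in resveratrol rats, against 941, 892 and 733 in the control pool, on the 3 arrays where its spot was not flagged. Its log2 ratios were 0.51, -0.03 and 0.39, with a mean of 0.29 ± 0.14 (adjusted p = 0.136). The brighter probe was flagged on 3 of 4 arrays and was left out of the test. On array 2, the only array with both spots unflagged, the brighter probe gave -0.18 and the dimmer one -0.03. With flagged spots kept, the brighter probe gave between -0.06 and 0.09 on the arrays (mean 0.01 ± 0.09, adjusted p = 0.95). The dimmer one then gave between 0.05 and 1.33 (mean 0.69 ± 0.19, adjusted p = 0.0172), and under median centring it was also called, at 0.64 (adjusted p = 0.00488).

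Bcl3 encodes an atypical IkB protein that enters the nucleus and works with p50 and p52 dimers. It had the lowest mean log2 ratio of the tested members and was not called. The Bcl3 probe, at chr1:79200943-79201002 on the minus strand of rn3, was brighter than 98.6% of tested probes. Its first 30 bases are shown to identify it, since its name rests on a gene ID.
Bcl3: aggaacagaggggattgggaggacattgat
The signals were 16655, 19683, 8571 and 20700 in resveratrol rats, against 28784, 23304, 67143 and 31649 in the control pool. Every resveratrol value lay below every control value, and array 3 had both the lowest resveratrol value and the highest control value. The log2 ratios were -0.79, -0.24, -2.97 and -0.61, with a mean of -1.15 ± 0.44 (n = 4, adjusted p = 0.0698). Without array 3 the mean was -0.55 (adjusted p = 0.0185), slide 1 alone gave -0.52 (adjusted p = 0.0158) and slide 2 alone -1.79 (adjusted p = 0.0811).

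The size of the Bcl3 value turned on the curve that normalizes bright spots. Before normalization its log2 ratio on array 3 was -1.89. The loess curve fitted without flagged spots stood at 1.08 at that intensity, and the curve fitted with them at -1.62. At a mean log2 intensity of 14.125 the unflagged spots of array 3 had a median of -1.10, against 1.07 for the first curve. With the second curve the Bcl3 ratios were -0.46, -0.10, -0.27 and 0.01, and their mean of -0.20 was not called (adjusted p = 0.118). This alternative was chosen after seeing the data. The Bcl3 mean stayed below 0 in all 18 alternatives tried, between -1.79 and -0.20, and was called in 5.

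**Figure D3:**
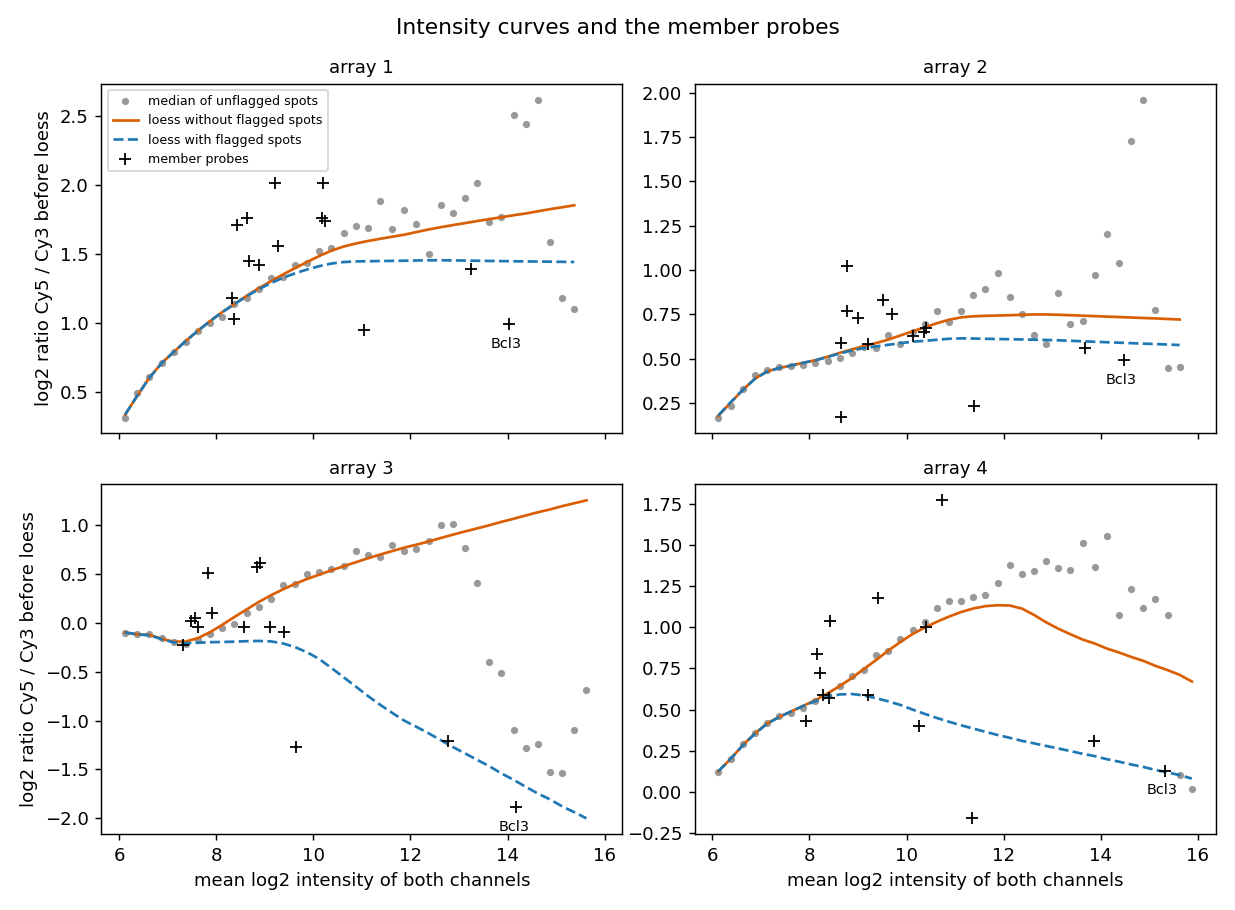
Log2 ratio of Cy5 over Cy3 before loess (vertical axis) against the mean log2 intensity of both channels (horizontal axis) for arrays 1 to 4. Grey points are medians of unflagged spots in bins of at least 20 spots, lines are loess curves fitted without (solid) and with (dashed) flagged spots, and crosses are the 14 member probes. On array 3 the curves part above an intensity of about 8 and lie on opposite sides of 0 at Bcl3.

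The genes whose brightest probe had log2 ratios most like those of Bcl3, by the root mean square difference over 4 arrays among 7406 genes, were Inhbb, Pdxp and Krtap3-3. Their differences from Bcl3 were 0.07, 0.09 and 0.10. All were bright, with mean log2 intensities of 14.69, 15.05 and 15.27, beside 14.50 for Bcl3. On array 3 they stood at -3.02, -2.88 and -2.97, and with flagged spots kept at -0.17, -0.01 and 0.08.

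Cd40 encodes a receptor of the TNF receptor family of B cells, dendritic cells and macrophages, which activates both branches of the pathway. Its probes were called in opposite directions. Both lie on the plus strand of chromosome 3 in rn3, at chr3:156005465-156005524 and chr3:156013267-156013326, with 7742 bases between them. They are shown because the result for Cd40 depends on which is read, the first in full and the second by its first 30 bases.
Cd40 probe 1: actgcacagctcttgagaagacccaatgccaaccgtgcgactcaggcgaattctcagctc
Cd40 probe 2: atggaggaaaagctttggcgtcaggggtcc
Probe 1 had signals of 1749, 1593 and 773 in resveratrol rats, against 2721, 2269 and 2475 in the control pool, and was flagged on array 4. All resveratrol values were below all control values. Its log2 ratios were -0.64, -0.51 and -1.68, and the mean fell to -0.94 ± 0.25 (n = 3, adjusted p = 0.0341). Without array 3 it was -0.57 (adjusted p = 0.0191), on the 2 arrays of slide 1. The size of the fall also depended on the normalization. The mean was -0.64 with flagged spots in the loess fit only (adjusted p = 0.0192) and -0.48 under median centring (adjusted p = 0.0385). On array 3 the loess curve with flagged spots moved the ratio of probe 1 from -1.68 to -1.02.

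Cd40 probe 2 had signals of 689, 524, 917 and 718 in resveratrol rats, against 427, 447, 713 and 557 in the control pool. The ranges overlapped, but on each array the resveratrol signal was the higher one. Its log2 ratios were 0.69, 0.23, 0.36 and 0.37, and the mean rose to 0.41 ± 0.10 (n = 4, adjusted p = 0.0232). That mean was 0.58 with flagged spots in the loess fit only and 0.70 under median centring. Neither call held with the widened standard error (adjusted p = 0.12 for probe 1 and 0.097 for probe 2). Without array 1 the adjusted p was 0.0673 for probe 1 and 0.0923 for probe 2, and without array 2 it was 0.0544 and 0.0598, and without array 4 probe 2 had 0.0518. Which part of the gene each probe reads was not assigned here, so a single direction for Cd40 cannot be given.

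**Figure D4:**
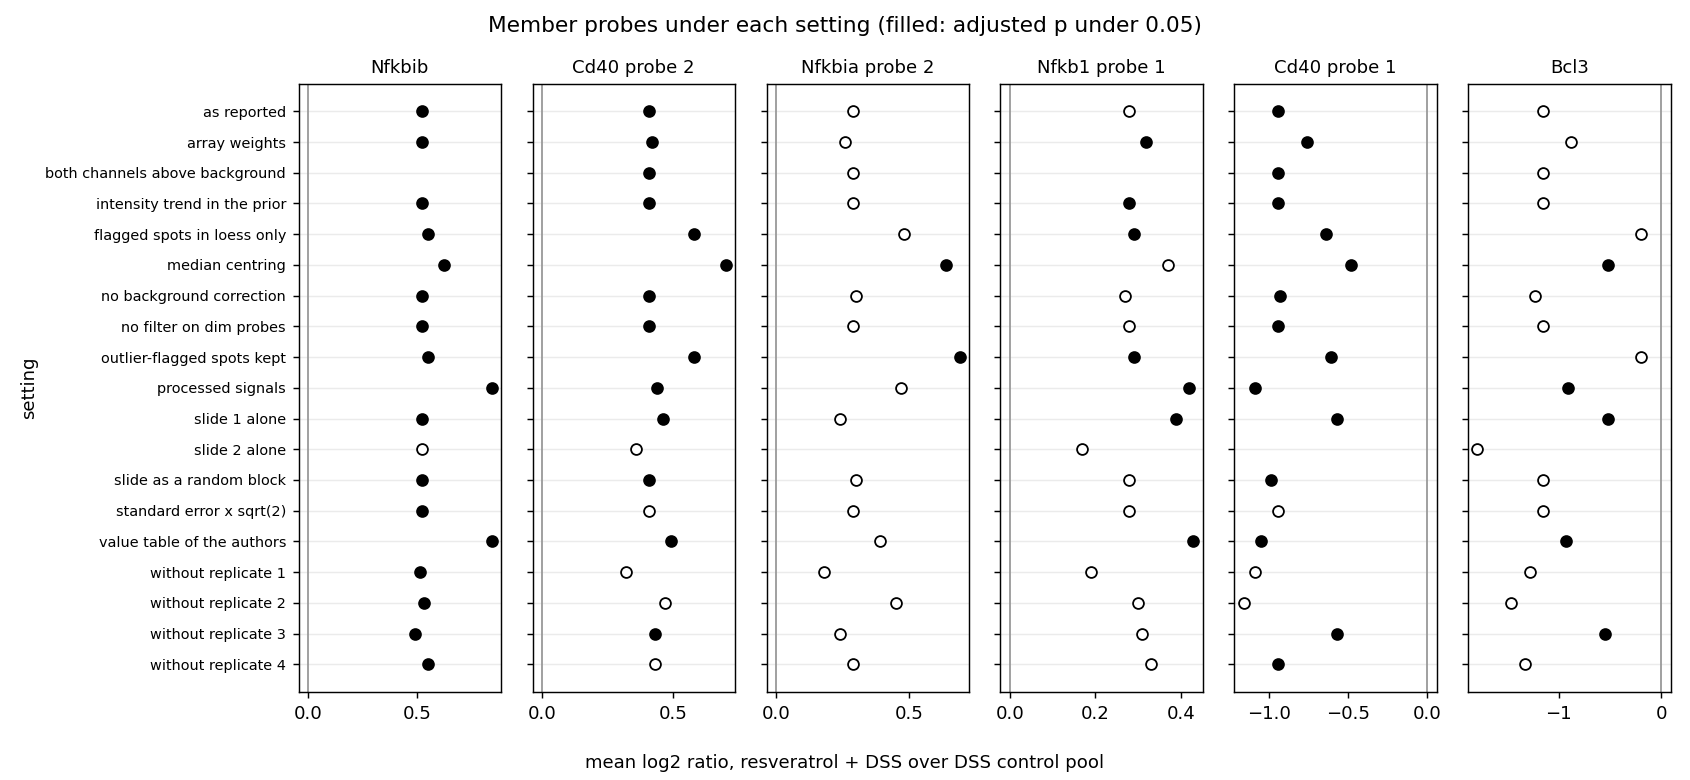
Mean log2 ratio (horizontal axes) of 6 member probes under each processing setting (rows), filled where the adjusted p was under 0.05. A missing point means that the probe could not be tested. Nfkbib stays between 0.49 and 0.84 and is filled in all settings that could test it but slide 2 alone. Bcl3 ranges from -1.79 to -0.20.

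Some of these genes are themselves targets of NF-kB in mammals. RefSeq promoters of GRCr8, each with 250 bases before and 50 after the gene's start, were available for 7 members. The consensus kappaB motif, a 10-base site that NF-kB dimers bind, was searched on both strands. It occurred in the windows of 5 members, Nfkb1, Nfkb2, Nfkbia, Bcl3 and Tnfaip3, and in those of neither Rela nor Nfkbib, against 7.51% of all 33469 promoters. The matches of the measured genes are shown with 10 bases on either side, the motif in capitals, to set the members' values beside the letters the pathway reads.
Nfkb1, chr2:226805440-226805469, minus strand: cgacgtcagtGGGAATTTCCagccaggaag
Nfkb2, chr1:255108344-255108373, plus strand: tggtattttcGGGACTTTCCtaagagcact
Nfkbia, chr6:78597084-78597113, minus strand: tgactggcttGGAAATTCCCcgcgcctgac
Bcl3, chr1:88613574-88613603, minus strand: tcggcggcagGGGAAGTCCCgcagcccggc
The motif began 20 bases before the start in Nfkb2, 31 in Nfkbia and 38 in Bcl3. Tnfaip3, which had no probe, held 3 matches. None of the measured genes with the motif was called by any tested probe, where 47.1% of all tested probes were called. In alternatives the brighter Nfkb1 probe was called in 7 of 17, Bcl3 in 5 of 18 and the dimmer Nfkbia probe in 2 of 17. Of the measured genes without a match, Nfkbib was called higher and Rela was not called. So few genes do not show whether motif and call are related. A match is a stretch of letters and not evidence of binding in these rats.

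Calls were also made among other genes of the pathway. Represented by their brightest probe, 45.1% of the 9982 tested genes were called, 25.6% higher and 19.5% lower, with a median of 0.02. Of 13 further NF-kB family genes 9 were tested, of which 4 were higher, 1 lower and 4 not called (median 0.25). Map3k14, the kinase that starts the non-canonical branch, gave -0.77, -0.71, -1.23 and -0.85 and fell by a mean of 0.89 (adjusted p = 0.00508). Its call held on slide 2 alone at -1.04 (adjusted p = 0.0461) and with the widened standard error (adjusted p = 0.0333). Tab2, an adaptor that brings the kinase TAK1 to ubiquitin chains, rose to 0.52 (0.45, 0.59, 0.60 and 0.45, adjusted p = 0.0074). The Tab2 signal was well above background on 3 arrays in resveratrol rats and on 1 in the control pool. Map3k7, which encodes TAK1, rose to 0.41 by its brightest probe (adjusted p = 0.0317), beside 0.04 by its other one. Chuk, the gene for the IkB kinase subunit alpha, rose to 0.31 (adjusted p = 0.0251), with the control pool signal well above background on 2 arrays. Tab2 and Chuk thus passed the filter only through the resveratrol channel. Map3k7 missed the threshold without array 1 (adjusted p = 0.12) or 2 (0.117), and Chuk without array 1 (0.0901), 2 (0.124) or 4 (0.0596). The list's higher calls numbered 1 without array 1 or 2, 2 without array 4, and 1 with the widened standard error.

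Among receptors and adaptors upstream of the kinase, 20 of 35 genes were tested, of which 9 were higher, 2 lower and 9 not called (median 0.25). Of all tested genes 25.6% were higher and 19.5% lower. Bcl10, which links antigen receptors to the kinase, rose to 0.84 (1.01, 1.08, 0.83 and 0.45, adjusted p = 0.00665). Traf2, an adaptor of TNF receptors and Cd40, rose to 0.72 (adjusted p = 0.00719), and Irak2, a kinase of the Toll-like receptor route, to 0.59 (adjusted p = 0.0173). Traf2, Irak2, Myd88 and Tlr4, all higher, passed the filter only through the resveratrol channel. Their control pool signals were well above background on 1 or 2 arrays. The list's counts are therefore not a test of it as a set. Tlr9, a receptor for microbial DNA, was at least 1.53-fold lower (adjusted p = 0.00896), with the resveratrol signal not well above background on any array. Tnfrsf1a, the main TNF receptor gene, fell to -0.44 (-0.31, -0.02, -0.68 and -0.76, adjusted p = 0.0451). Irak2 missed the threshold without array 1 (adjusted p = 0.0586), and Tnfrsf1a without array 1 (0.0931), 3 (0.0891) or 4 (0.125). Tnfrsf1a also missed it with the slide as a random block (adjusted p = 0.0586) and was at -0.19 under median centring (0.391) and -0.17 on slide 1 alone (0.237). The list's higher calls numbered 2 without array 1 and 3 without array 2, and its lower calls 1 without array 1, 3 or 4. With the widened standard error 2 genes were higher and 0 lower, where Tlr9 had an adjusted p of 0.0501.

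Of 19 other negative regulators 11 were tested, of which 1 was higher, 3 lower and 7 not called (median 0.00). The shares over all tested genes were 25.6% higher and 19.5% lower. Tax1bp1, a partner of the Tnfaip3 protein A20, rose to 0.41 (adjusted p = 0.0188). Tank, a TRAF-binding protein, fell to -0.88 on 3 arrays (adjusted p = 0.0289), and Tnip2, an A20-binding protein, to -0.36 (adjusted p = 0.0475). Tnip2 was well above background on 2 arrays in resveratrol rats and on 4 in the control pool. It thus passed the filter only through the control pool channel. Tollip, an inhibitor of the interleukin-1 receptor route, fell to -0.60 by its brightest probe on the 2 arrays of slide 1 (adjusted p = 0.039), beside 0.09 by its other one. Tank missed the threshold without array 1 or 2 (adjusted p = 0.0528 and 0.0638) and was at -0.57 without array 3. Tax1bp1 missed it without array 1, 2 or 4 (adjusted p = 0.0633, 0.0913 and 0.0512), and Tnip2 without any one array (adjusted p between 0.0638 and 0.147). Tnip2 and Tollip also missed it when the slide was a random block (adjusted p = 0.0763 and 0.0593). Under median centring Tollip was at -0.10 (adjusted p = 0.759) and Tank at -0.44 (0.0584). The list then had 4 genes higher and 0 lower, so that the balance of its calls depended on the normalization. Without array 1 the list had 0 calls, without array 2 it had 1 higher and 0 lower, and without array 3 it had 2 higher and 2 lower. With the widened standard error it also had 0.

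Among 35 target genes of NF-kB, 23 were tested, of which 11 were lower, 3 higher and 9 not called (median -0.34). The lower share, 11 of 23, stood beside 19.5% of all genes, but the list was chosen with earlier results of these data known. Vcam1, Cxcl2, Ccl2, Ccl3, Ccl4, Nos2 and Plau, all lower, passed the filter only through the control pool channel. Their resveratrol signal was well above background on 0 or 1 array. The share is therefore not a test of the targets as a set. Cxcl2, a chemokine for neutrophils, was at least 2.87-fold lower (adjusted p = 0.00475) and Ccl2, a chemokine for monocytes, at least 2.14-fold lower (adjusted p = 0.00388), with the resveratrol signal of neither well above background on any array. Ccl3, another chemokine, gave -0.74, -1.52, -1.51 and -1.65, and fell to -1.36 (adjusted p = 0.00492), well above background on 1 array in resveratrol rats and on 4 in the control pool. Il1b, encoding interleukin-1 beta, fell to -1.33 on 3 arrays (adjusted p = 0.0246), and to -0.86 without array 3 (adjusted p = 0.0076). Icam1, an adhesion molecule gene, was not called at -0.18 (adjusted p = 0.177), and for Tnf and Il6 no array had a channel well above background. In the other direction Csf2, the gene of a myeloid growth factor, gave 2.29, 1.39, 0.37 and 1.02 and rose to 1.27 (adjusted p = 0.0192). Xiap, an inhibitor of cell death, rose to 0.54 (adjusted p = 0.0117) and Gadd45b, a stress-response gene, to 0.37 (adjusted p = 0.0232). Gadd45b was well above background on 3 arrays in resveratrol rats and on 2 in the control pool. It thus passed the filter only through the resveratrol channel. Csf2 missed the threshold without array 2 (adjusted p = 0.0594), and Xiap and Gadd45b without array 1 (0.0541 and 0.101) or 2 (0.0505 and 0.0972). Without array 2 the list had 6 genes lower and 0 higher, and without array 1 it had 8 lower and 1 higher. Under median centring 8 targets were lower and 2 higher, and with the widened standard error 5 were lower and 0 higher.

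**Figure D5:**
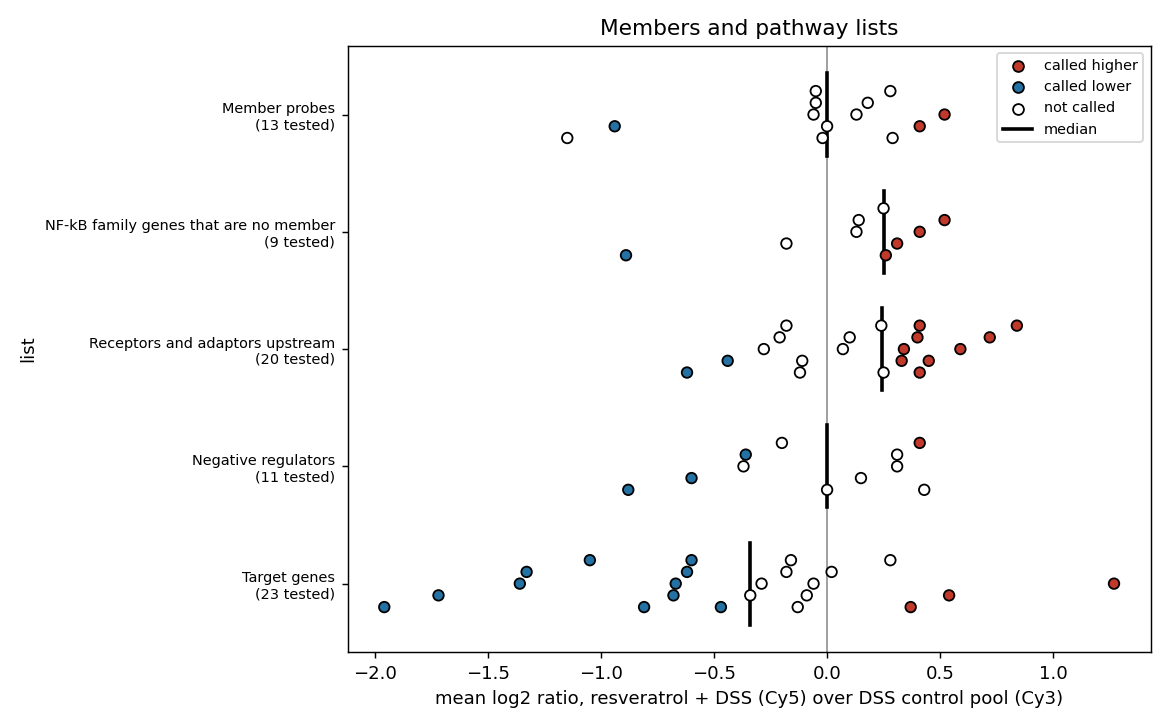
Mean log2 ratio (horizontal axis) of resveratrol plus DSS over the DSS control pool for the 13 tested member probes and, by their brightest probe, the tested genes of 4 pathway lists (rows). Red is called higher, blue called lower, white not called, and black bars are medians. The median of the targets is -0.34, against 0.00 for the members.

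Markers of several cell types moved in the same samples, and in bulk tissue fewer cells of a type and less RNA per cell cannot be told apart. Macrophage markers were lower for 6 of 7 tested genes, with array medians between -0.78 and -0.49, and T cell markers for 5 of 6, between -0.63 and -0.33. Neutrophil markers were lower for 5 of 6, with array medians between -1.88 and -0.43. Fibroblast markers were lower for 5 of 6 and endothelial ones for 4 of 5. Of all tested genes 19.5% were lower. Mrc1, Cd5, Csf3r, Cdh5, Tek, Dcn and Pdgfra, all lower, passed the filter only through the control pool channel. Their resveratrol signal was well above background on 0 to 2 arrays. The counts are therefore not a test of the marker lists as sets. The counts of lower markers also varied with the setting. Under median centring the lower genes numbered 5 for macrophages, 1 for T cells, 2 for neutrophils, 5 for fibroblasts and 2 for endothelium. With the widened standard error they numbered 2, 0, 3, 3 and 0 for the same types. T cell markers had 1 lower without array 1 and 0 without array 2, and endothelial ones 1 without array 1, 2 or 4. Macrophage markers had 3 lower without array 2, and neutrophil markers 3 without array 1, 2 or 4. Colon epithelium markers were higher for 6 of 12, beside 25.6% of all genes, and lower for 0, with array medians between 0.04 and 1.07. All 12 were well above background in both channels on 4 arrays. The higher ones numbered 10 without array 3, 4 without any other array, 11 with flagged spots kept, 12 under median centring and 3 with the widened standard error. Of 10 B cell markers 8 had a probe, 2 were tested and neither was called (median -0.08), and Cr2 and Fcrla were among those never well above background. Among dendritic cell markers 1 of 4 was higher and 2 were lower (0 lower under median centring or without array 2, 3 or 4), while Cd80, Cd83 and Cd86 were never well above background. Xcr1, the higher one of the 4, passed the filter only through the resveratrol channel. The part of these cell types in the values of Nfkbib, Cd40, Map3k14 and the target genes was not tested.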

How the data were processed

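RNA of 4 Agilent arrays with 2 channels was analysed from the spot intensity values that the authors deposited. Per the file headers these came from version 9.5.3.1 of Agilent Feature Extraction, with probe positions on rn3. The deposited log10 ratios of the scanner were not used. In the deposited log2 table of the authors all 24197 rows matched a probe, with column medians of -0.013, -0.013, 0.0909 and -0.0247; its direction and scale followed the scanner values (r between 0.981 and 0.992), while its centring stays unknown. Per the submitters' processing notes limma was also used. The sources used here do not give the number of rats in the control pool or say that all arrays shared it.

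Mean signals were background-corrected with normexp (offset 50) and their ratios were loess-normalized on each array (limma 3.58.1, R 4.3.3). Control spots and outlier-flagged spots had weight 0 and flagged spots were left out. Spots of a probe were averaged. A probe was tested if 3 or more arrays had it well above background in a channel and 2 or more gave a value (lmFit, eBayes, 2-sided, Benjamini-Hochberg at 0.05), which left 18869. Replicates 1 to 4 were numbered in accession order, and each held different rats per the labels. For channels that never rose well above background, folds are lower bounds from channel signals after Aquantile normalization. They compare the brighter channel's mean with, per array, the higher of the dim signal and the lowest one well above background. Dye bias can affect them. Channel signals of members are from the same step. The fit was tested on simulated data before use.

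Gene names came from a RefSeq table of GRCr8, by accession for 10735 probes, another accession for 126, symbol for 5536, synonym for 3702 and a gene ID within the name for 1200, and 19713 stayed unnamed. Members and lists were chosen with earlier results of these data known. Named beyond the members were up to 3 called genes of each pathway list in each direction with the largest ratios, Tnf, Il6, Il1b and Icam1, and 3 genes most like the member with the largest ratio on 4 arrays. Alternatives were other normalizations, filters, priors and error sizes, the slide, array weights, the authors' table and each array left out.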

Additional observations from a re-analysis of the deposited data

Results flagged for a closer look

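Of 28 member probes and named genes with values on 4 arrays, 2 had an array far from the others by Dixon's test, and chance alone flags about 1 in 20. The dimmer Rela probe stood at 0.00 on array 4, against 0.17 to 0.18 on the other arrays. Ccl3 stood at -0.74 on array 1, against values between -1.65 and -1.51 on the others.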

How the results depend on the processing

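No paired analysis was possible because all 4 arrays belong to 1 group compared with a control pool. Of the 13 tested member probes 3 were called. The count was 5 under median centring, with flagged spots kept, with processed signals, on slide 1 alone and in the authors' table, 1 with the widened standard error and 0 of 10 on slide 2 alone. Leaving out 1 array gave between 1 and 4. Without replicate 1 or without replicate 2 the 1 call was Nfkbib. All probes called numbered 8886, against 4551 where all arrays had to show both channels well above background, 2180 with the widened standard error, 1749 on slide 2 alone, and between 3410 and 8964 with 1 array left out (3463 without replicate 1 and 3410 without replicate 2). Of the calls 51.7% were higher, against 78.8% under median centring, where the median of all probes was 0.20 in place of -0.02, and 62.1% with flagged spots in the loess fit only. Nfkbib kept its sign in all 17 alternatives that could test it and its call in 16. It could not be tested where all arrays had to show both channels well above background. Cd40 probe 1 kept its call in 14 of 17 and probe 2 in 13 of 18.

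A few probes near 0 changed sign, and the cause was not tested. Ikbkb was at -0.02 with no background correction, -0.05 with processed signals, -0.17 on slide 2 alone, -0.03 in the authors' table, and between -0.07 and 0.06 with 1 array left out. The brighter Nfkb2 probe was at 0.01 with array weights, 0.26 with flagged spots in the loess fit only and with them kept, 0.38 under median centring, 0.11 on slide 1 alone, and between -0.15 and 0.07 with 1 array left out. The brighter Rela probe was at 0.05 with array weights, 0.18 with flagged spots in the loess fit only, 0.11 with them kept, 0.34 under median centring, 0.12 on slide 1 alone, and between -0.17 and 0.12 with 1 array left out. Relb was at 0.02 under median centring, 0.08 with processed signals, 0.04 on slide 2 alone, and between -0.11 and 0.05 with 1 array left out.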
